A study of Mus musculus with 10 samples.

Results

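The genes described are 34 genes of B cells, T cells and lymph node, chosen by name from the annotation of the array, and read in the gastrocnemius, a calf muscle. Of the 34, 31 had at least 1 probe set (a group of short oligonucleotides that reads a transcript) assigned to that gene alone, 60 probe sets in all of the 45037 tested. Lck was not analysed here, and Ccl19 and Ccl21a were left out because their probe sets are assigned to several genes. By role there were 12 B cell genes with 26 probe sets, 11 measured T cell genes with 21, 6 genes shared by lymphocyte types with 10, and 2 measured genes of lymph node vessels and stroma with 3.

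The 10 samples were muscles of male mice aged 12 to 16 weeks, all fed chow and then fasted for 18 h. In 5 the gene Skn-1, also called Pou2f3, was deficient, and 5 were wild type. Per the labels, both genotypes had a mixed 129 x C57BL/6J background, and the deficient line was crossed back to C57BL/6J for over 10 generations. Each genotype is given as 5 biological replicates, each on its own Affymetrix array. How much of Skn-1 was deleted, and whether animals were littermates, is not in the labels. The design asks which transcripts differ in fasted muscle without Skn-1. Values are on a scale taken as log2 from their range, so folds rest on that reading.

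Lymphocytes circulate between blood and lymph nodes, and a resting limb muscle holds few of them. B cells read antigen through a membrane antibody paired with the signalling chains Cd79a and Cd79b, and T cells through a receptor paired with the Cd3 chains. Both enter lymph nodes through high endothelial venules, which make Glycam1, and sort into separate zones under chemokines such as Cxcl13.

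Lymphocyte genes were high in 1 array of each genotype and low in the other 8. Knockout 5 and wild type 3 were the highest of their genotype in all 23 genes with a probe set that varied, and both stood above the other 8 arrays in 31 of 32 varying probe sets. Over all varying probe sets of the series, this held for 12.7%. In 18 of the 32 the lower of these 2 arrays was more than 1 log2 unit above the highest of the other 8, against 1.26% of all varying probe sets (78 of 6209). The members were chosen with earlier results of these data known, so these counts describe the pattern and do not test it.

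The probe sets were of 2 kinds. Of the 60 probe sets, 32 had an SD over the 10 arrays above 0.01, which was the case for 13.8% of all 45037 probe sets. They came from 23 genes: 14 were probe sets of B cell genes (Cd79b, Ms4a1, Cd22, Pou2af1, Fcmr, Ighm, Jchain, Cr2 and Fcer2a), 8 of T cell genes (Cd3d, Cd3g, Cd2, Cd5, Cd8b1, Il7r and Ms4a4b), 7 of shared genes (Cd37, Ltb, Ccr7, Ptprc and Coro1a) and 3 of Glycam1 and Cxcl13. The other 28 hardly varied, with a median SD of 0.000268. Among them were all probe sets of Cd79a, Blk, Pax5, Cd3e, Cd247, Cd4, Cd8a and Cxcr5. Differences in such probe sets are too small on the deposited scale to be read as changes in RNA. Few probe sets lay near the threshold: just above the threshold lay an Ighm probe set (SD 0.0165) and then Cd5 (0.151), and just below it 2 probe sets of Cd247 (0.00484 and 0.000465).

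**Figure D1:**
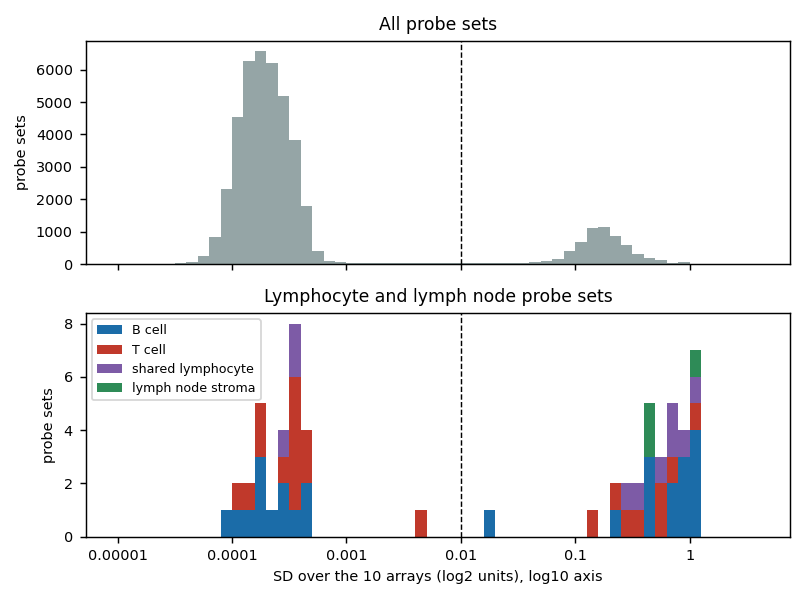
SD over the 10 arrays on a log10 axis for all 45037 probe sets (top) and for the 60 probe sets of the lymphocyte and lymph node genes (bottom, coloured by role); the dashed line is 0.01. The values form 2 separate humps, and 32 of the 60 lie to the right of the line.

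The order of arrays was also seen in part of the probe sets that hardly varied. In 13 of the 28, knockout 5 and wild type 3 were the 2 highest arrays, against 3.3% of all such probe sets in the series. These 13 included Cd79a, the signalling partner of Cd79b, Cd3e, and 4 of 5 probe sets of Cd8a, the co-receptor of cytotoxic T cells. For Cd79a the lower of the 2 arrays exceeded the other 8 by just 0.00063. Such gaps are too small to be read as changes in RNA. The members were chosen with earlier results of these data known, so the count describes the order and does not test it. The 2 probe sets each of Pax5, the factor that fixes B cell identity, and of Cd4, the co-receptor of helper T cells, did not show that order.

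**Figure D2:**
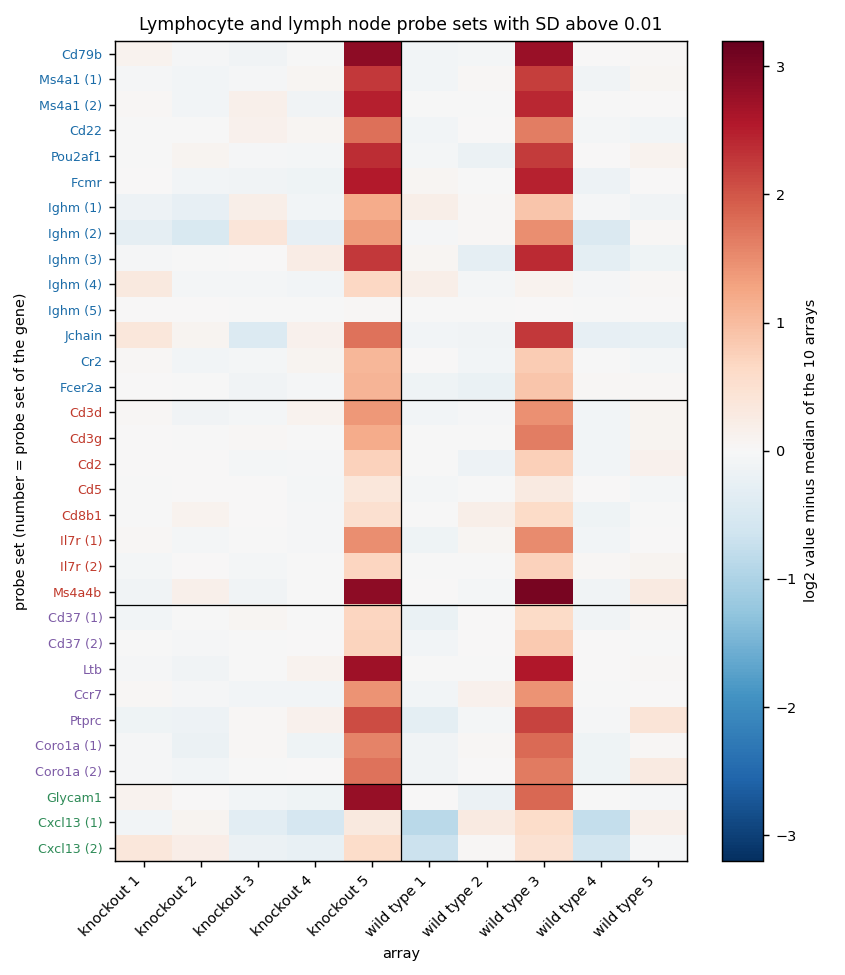
Deviation of each varying probe set (rows, grouped by role) from its median over the 10 arrays (columns), in log2 units. Knockout 5 and wild type 3 are above the other 8 arrays in 31 of the 32 rows, the exception being the Ighm probe set marked 4.

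B cell genes were high in knockout 5 and wild type 3 alone. Cd79b, the signalling chain of the B cell receptor, read 5.62, 5.49, 5.41, 5.51 and 8.38 in knockouts 1 to 5, and 5.44, 5.46, 8.28, 5.53 and 5.57 in wild types 1 to 5. A single array of each genotype was thus high, by 2.66 above the highest of the other 8, while those 8 had an SD of 0.0687. Ms4a1, the B cell antigen CD20, read 5.42, 5.29, 5.53, 5.25 and 7.85 in knockouts and 5.34, 5.34, 7.78, 5.36 and 5.37 in wild types. Fcmr, a receptor for IgM, read 5.77, 5.66, 5.63, 5.62 and 8.29 in knockouts and 5.82, 5.74, 8.22, 5.60 and 5.76 in wild types. Each of these genes was separated from the other 8 arrays by more than 2 log2 units.

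Pou2af1 is a coactivator that binds octamer factors of the family to which Pou2f3 belongs. It read 5.16, 5.25, 5.13, 5.11 and 7.54 in knockouts and 5.11, 4.99, 7.41, 5.18 and 5.28 in wild types. The 8 lower arrays lay below every array's median of all probe sets (6.23 to 6.24), and the level of Pou2af1 there was not shown to be above background. Cd22, an inhibitory co-receptor of B cells, read 6.28, 6.28, 6.42, 6.35 and 8.04 in knockouts and 6.18, 6.28, 7.92, 6.22 and 6.19 in wild types. Its next highest array was knockout 3, and the gap below the 2 high arrays was 1.499. Closest to the other 8 arrays among B cell receptors were Cr2, the complement receptor of B and follicular dendritic cells (6.998 and 6.74 against 5.85 to 6.01), and Fcer2a, the low-affinity IgE receptor (7.03 and 6.82 against 5.72 to 5.97). In all 7 of these genes knockout 5 exceeded wild type 3, by 0.07 to 0.26.

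The antibody genes were less uniform. Jchain, which joins IgM and IgA into polymers and is made by antibody-secreting cells, stood at 7.64 in knockout 5 and 8.16 in wild type 3, against 5.47 to 6.26 in the other arrays. It was the B cell gene in which wild type 3 exceeded knockout 5 the most, by 0.52. Ighm, the constant region of IgM, had 11 single-gene probe sets, of which 5 varied. The most variable stood at 9.25 and 9.38 against 6.68 to 7.22. The others were higher in knockout 5 by 0.30, 0.53 and 0.04, and lower by 0.12. In 1 of the 5 wild type 3 reached 6.04, below the 6.23 of knockout 1, so the Ighm probe sets did not give a single order of arrays. Immunoglobulin genes resemble each other, and probe sets named Ighm may read several of them.

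T cell genes were high in the same 2 arrays. Cd3d read 5.89, 5.73, 5.78, 5.97 and 7.25 in knockouts 1 to 5, and 5.77, 5.82, 7.30, 5.78 and 5.95 in wild types 1 to 5. Cd3g read 5.50, 5.49, 5.53, 5.49 and 6.70 in knockouts and 5.49, 5.49, 7.13, 5.42 and 5.57 in wild types. These chains signal for the T cell receptor, and for Cd3g the lower of the 2 arrays, knockout 5, was 1.12 above the highest of the other 8. Ms4a4b, a membrane protein of T cells related to CD20, read 5.35, 5.64, 5.37, 5.44 and 8.34 in knockouts and 5.49, 5.40, 8.51, 5.36 and 5.75 in wild types. It had the widest separation of the T cell genes, 2.60, next to the 2.66 of Cd79b. The other 8 arrays lay below every array's overall median for all of these T cell genes, so no fold is given over them.

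Il7r, the receptor for the survival factor of naive T cells, read 5.96, 5.86, 5.91, 5.88 and 7.41 in knockouts and 5.79, 5.97, 7.42, 5.83 and 5.92 in wild types. Less far above the others were Cd2, an adhesion receptor (6.69 and 6.73 against 5.80 to 6.10), and Cd8b1, a chain of the CD8 co-receptor (6.31 and 6.42 against 5.67 to 6.00). Cd5, a receptor of T cells and some B cells that dampens signalling, stood at 6.33 and 6.25 against 5.89 to 5.99. In every one of these genes the 2 arrays stood clear of the other 8, and Cd5 had the narrowest separation, 0.27.

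**Figure D3:**
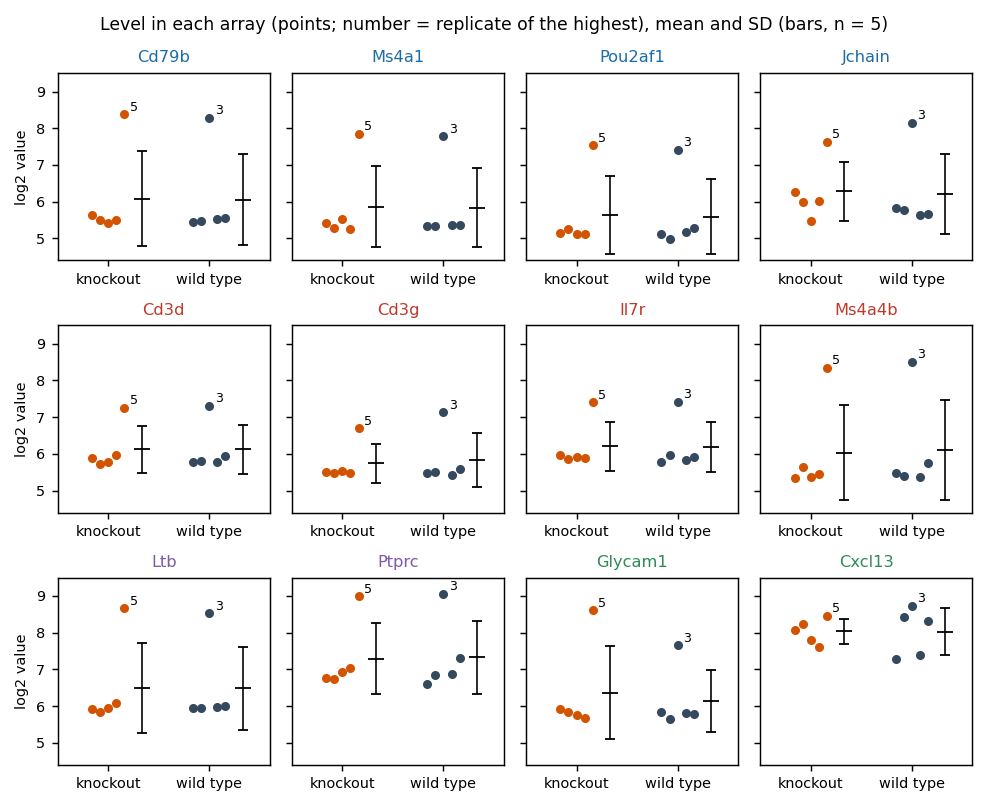
Log2 level of 12 members in each of the 5 knockout and 5 wild-type arrays (points, with the replicate number at the highest), with mean and SD (bars). In 11 of them knockout 5 and wild type 3 lie clear of the other 4 arrays of their genotype, whereas Cxcl13 spreads over all arrays.

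Genes shared by B and T cells behaved alike. Ltb, the lymphotoxin beta that organises lymphoid tissue, read 5.93, 5.84, 5.96, 6.08 and 8.67 in knockouts 1 to 5, and 5.95, 5.95, 8.52, 5.97 and 5.99 in wild types 1 to 5. Ptprc, the leukocyte antigen CD45, read 6.77, 6.75, 6.92, 7.04 and 8.99 in knockouts and 6.60, 6.85, 9.06, 6.87 and 7.30 in wild types. The groups of 4 lower arrays of the 2 genotypes overlapped in both genes. Coro1a, a coronin of the leukocyte cytoskeleton, stood at 8.06 and 8.29 against 6.28 to 6.52. Ccr7, which leads cells into lymph nodes, stood at 6.97 and 6.98 against 5.45 to 5.67, and Cd37, a tetraspanin, at 6.88 and 7.01 against 6.08 to 6.19. Among these genes Ptprc had the widest spread in the other 8 arrays, with an SD of 0.213, and its highest value there was in wild type 5.

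The lymph node genes divided. Glycam1, the mucin of high endothelial venules that L-selectin binds, read 5.93, 5.83, 5.74, 5.68 and 8.61 in knockouts 1 to 5, and 5.83, 5.64, 7.65, 5.81 and 5.79 in wild types 1 to 5. The gap of 0.96 between the 2 arrays was the widest of all members. Cxcl13, which draws B cells into follicles, read 8.07, 8.24, 7.81, 7.61 and 8.46 in knockouts and 7.29, 8.43, 8.73, 7.38 and 8.31 in wild types. Its highest value in the other 8 arrays was thus just 0.03 below that of knockout 5. It did not mark these arrays as the other members did, and its SD over the other 8 arrays, 0.436, was the widest of the 32 probe sets.

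B and T cell genes were both high in the 2 arrays, and which array was higher depended on the measure. The median deviation of the 14 varying B cell probe sets from their 10-array medians was 1.75 in knockout 5 and 1.93 in wild type 3. That of the 8 T cell probe sets was 0.97 and 1.11. In the other 8 arrays both medians lay between −0.08 and 0.08. B minus T was 0.78 in knockout 5 and 0.81 in wild type 3, and between −0.07 and 0.05 elsewhere. Mean levels ordered the arrays otherwise for B cell genes: the mean of the B cell probe sets was 7.71 in knockout 5 and 7.63 in wild type 3, and that of the T cell probe sets 6.91 and 7.01. Probe sets differ in how fully they report a change, so the larger B cell deviation is not a ratio of cells. When the 2 arrays are compared within 1 probe set, the sign is free of that limit, but the size of the difference is not. This comparison rests on 1 array each and has no replicate check.

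By that measure 11 of 14 B cell probe sets were higher in knockout 5, by a median of 0.09, and 7 of 8 T cell probe sets were higher in wild type 3, with a median difference of −0.05. Over all varying probe sets 51.6% were higher in knockout 5, with a median of 0.01 and with values between −0.25 and 0.30 from the 10th to the 90th percentile. Most members lay inside that span. Outside it were Ighm (0.53 and 0.30) and Glycam1 (0.96) on the side of knockout 5, and Jchain (−0.52), Cd3g (−0.44) and Cxcl13 (−0.27) on the side of wild type 3. The split by cell type was not seen in other genes of the same cells: of 20 varying probe sets of 15 further B cell genes 10 were higher in knockout 5, and of 13 of 11 further T cell genes 7 were.

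**Figure D4:**
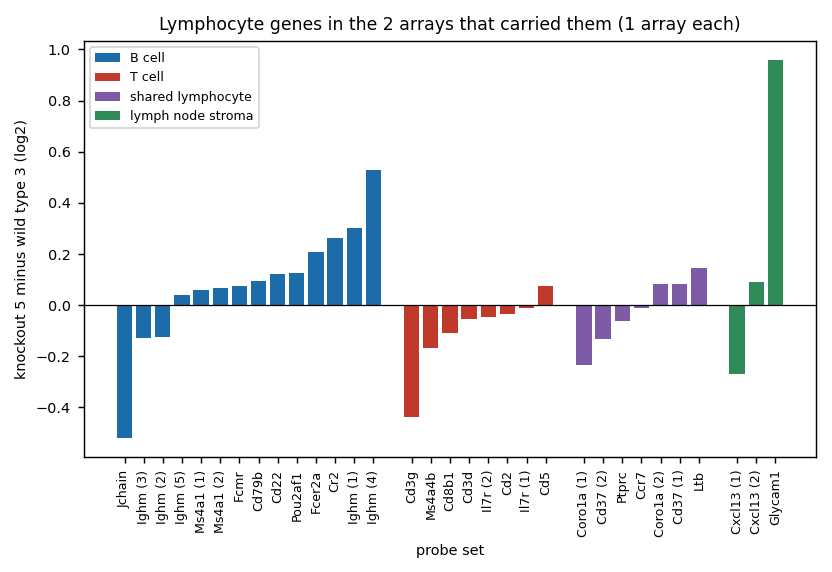
Difference between knockout 5 and wild type 3 (log2, 1 array each) for the 32 varying probe sets, ordered within each role. Of the B cell probe sets 11 of 14 are above 0 and of the T cell probe sets 1 of 8, and Glycam1 has the widest difference, 0.96.

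Promoters are shown for a gene of each kind of case: Cd22, the member with a match to a motif of the B cell factor EBF1, Ms4a4b, the T cell gene with the widest separation from the other arrays, and Pou2af1 and Cd3g, which varied and lie on the chromosome of Pou2f3. They are the 250 bases before the annotated start, from RefSeq in build GRCm38.p6, 5′ to 3′ on the strand of the gene, with a motif match in capitals.
Cd22, chr7:30879029-30879278, minus strand: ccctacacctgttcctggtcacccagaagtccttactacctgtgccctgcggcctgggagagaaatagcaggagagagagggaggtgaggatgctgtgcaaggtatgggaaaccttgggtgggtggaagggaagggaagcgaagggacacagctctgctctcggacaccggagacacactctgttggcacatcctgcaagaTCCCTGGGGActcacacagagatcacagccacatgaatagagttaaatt
Ms4a4b, chr19:11443308-11443557, plus strand: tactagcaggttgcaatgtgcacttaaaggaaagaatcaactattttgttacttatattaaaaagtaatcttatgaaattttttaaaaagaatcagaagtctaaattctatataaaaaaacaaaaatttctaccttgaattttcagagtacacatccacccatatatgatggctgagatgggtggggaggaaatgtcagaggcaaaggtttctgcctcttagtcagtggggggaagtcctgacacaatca
Pou2af1, chr9:51213440-51213689, plus strand: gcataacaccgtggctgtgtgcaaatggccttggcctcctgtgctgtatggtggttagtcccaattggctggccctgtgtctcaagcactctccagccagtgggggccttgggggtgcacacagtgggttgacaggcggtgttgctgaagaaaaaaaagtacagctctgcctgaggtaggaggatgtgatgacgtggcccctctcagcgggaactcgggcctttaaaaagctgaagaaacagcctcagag
Cd3g, chr9:44980432-44980681, minus strand: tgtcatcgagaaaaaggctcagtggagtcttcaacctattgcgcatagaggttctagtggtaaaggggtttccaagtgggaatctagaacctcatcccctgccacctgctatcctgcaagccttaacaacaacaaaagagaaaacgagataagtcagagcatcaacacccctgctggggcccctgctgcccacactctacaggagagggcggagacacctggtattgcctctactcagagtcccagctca

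The motif search covered 250 bases before to 50 after each start, on both strands, in 30 promoters of 25 of the 34 genes. The octamer ATGCAAAT, the site of POU factors, was in 0 of the 30 and in 1.74% of all 32851 promoters in the table. TCCC and GGGA with any 2 bases between them, a form of the EBF1 site that reads alike on both strands, were together in 1 of 30, that of Cd22 starting 49 bases before the start, and in 0.904% of all. TGTGGT, the core of the RUNX site, was in 3 of 30 (Fcer2a, Il7r and Lck) and in 16.8% of all. The motifs do not overlap in these promoters, and a match is a description of letters and not a bound site.

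No difference between genotypes could be told from this spread between arrays. None of the 60 probe sets passed an adjusted p of 0.05 with limma over all probe sets, where 0.191% of the 45037 did (86, with 0.155% higher and 0.0355% lower in knockouts), and none had an unadjusted p under 0.05, where 6.62% did (9.92% of varying probe sets). No member's groups were without overlap, which was the case for 1.6% of all probe sets and 3.96% of varying ones. Where knockout 5 and wild type 3 both stand above the other 8 arrays, the genotypes must overlap. That was so in 31 of the 32 varying probe sets and 13 of the 28 others, so the lack of such members is no test. Of the 32 varying probe sets 19 were higher and 13 lower in knockouts, and their median difference was 0.01, against −0.002 over all 6209 varying probe sets. The median was 0.04 for B cell, −0.01 for T cell, −0.02 for shared and 0.21 for lymph node probe sets. In bulk muscle, fewer lymphocytes and less RNA per lymphocyte cannot be told apart.

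The size of the difference was poorly fixed, because 1 array of 5 set the spread in each genotype. For Cd79b the 5 knockouts averaged 6.08 ± 1.29 (SD) and the 5 wild types 6.06 ± 1.25, a log2 difference of 0.03 ± 0.78 SE with a 95% interval from −1.76 to 1.81 (limma adjusted p = 0.9996). Ms4a4b was 6.03 ± 1.30 against 6.10 ± 1.36, with an interval from −1.94 to 1.80 (limma adjusted p = 0.9996). Among the varying probe sets a second probe set of Cxcl13 had the smallest adjusted p (0.948), at 7.83 ± 0.352 in knockouts and 7.53 ± 0.485 in wild types. These intervals include more than a doubling in either direction for Cd79b and Ms4a4b, so the test does not show that the genotypes are alike.

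Leaving out 1 array turned the differences, though none passed. Without knockout 5 all 23 genes, each by its most variable probe set, were lower in knockouts, and without wild type 3 all 23 were higher. For Cd79b the difference was −0.55 and 0.58, and for Ms4a4b −0.65 and 0.53. With 1 high array in each genotype, leaving out 1 of them largely fixes these signs in advance. The counts of 23 are therefore no test. Without both arrays, an alternative chosen after seeing the data, 4 arrays of each genotype were compared. The difference of Cd79b was then 0.01 ± 0.05 SE with an interval from −0.11 to 0.13, that of Ltb −0.02 (−0.13 to 0.10) and that of Ms4a4b −0.05 (−0.30 to 0.20). None of the 60 passed there either, where 0.0355% of all probe sets (16) did, 0.0289% higher and 0.00666% lower in knockouts. Over all varying probe sets 48.1% were higher in knockouts there, against 49.2% with all arrays. Of the 32 varying probe sets that of Cd22 had the smallest p, and was higher in knockouts by 0.11 ± 0.04 SE (limma unadjusted p = 0.0264, adjusted p = 0.767). It was alone among the 32 with an unadjusted p under 0.05, where 8.23% of all varying probe sets were. A Fcer2a probe set that hardly varied had a smaller p (limma unadjusted p = 0.022, adjusted p = 0.734). In these 8 arrays 23 of the 32 probe sets had a median below every array's median of all probe sets, so that a difference may not be readable there.

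**Figure D5:**
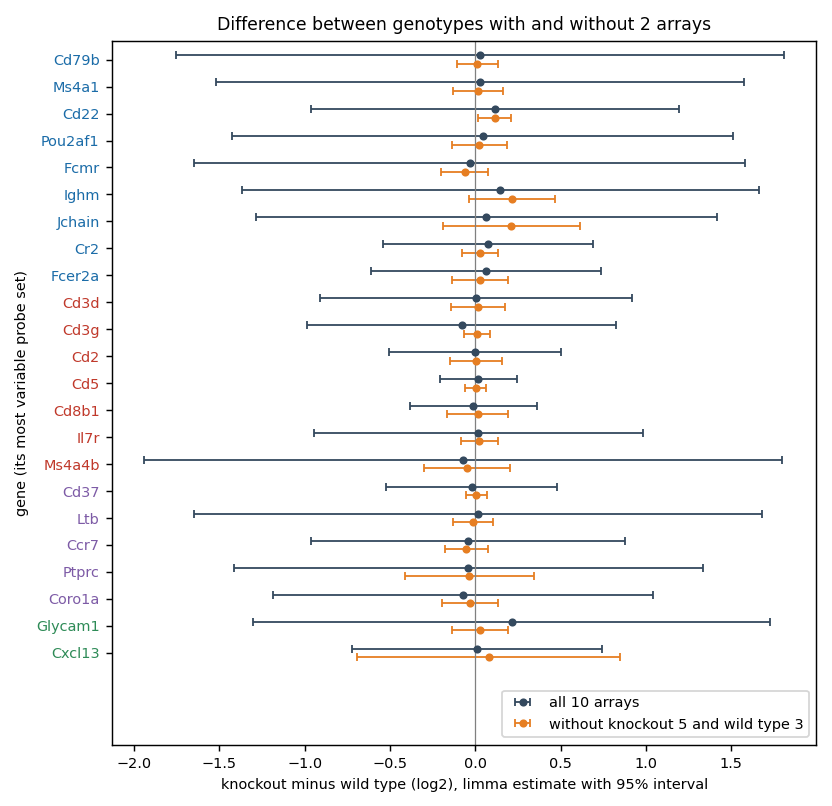
Knockout minus wild type (log2) for the most variable probe set of each of the 23 genes, with the limma 95% interval, from all 10 arrays and without knockout 5 and wild type 3. All intervals from the 10 arrays include 0, and without the 2 arrays they are narrower for every gene but Cxcl13, and all but that of Cd22 include 0.

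Several members lie on the chromosome of the targeted gene. In the gene order of chromosome 9, Cxcr5 is 52 places from Pou2f3, Cd3g, Cd3d and Cd3e are 73, 74 and 75 places away, and Pou2af1 is 213 places away. Of these, Cd3g, Cd3d and Pou2af1 varied. Their differences were −0.08 ± 0.40 SE, 0.00 ± 0.40 SE and 0.04 ± 0.64 SE over all arrays, and 0.01 ± 0.03 SE, 0.02 ± 0.07 SE and 0.02 ± 0.07 SE without the 2 arrays (limma adjusted p there = 0.997, 0.999 and 0.997). The labels' targeted gene itself is no check, since its single probe set hardly varied (SD 0.000257).

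Where they varied, most further genes of lymphocytes and lymph nodes followed the same arrays. Of the varying probe sets, 17 of 20 of further B cell genes, 13 of 13 of further T cell genes, 21 of 22 of other leukocyte genes and 10 of 12 of other lymph node genes had knockout 5 and wild type 3 above the other 8 arrays. Over all varying probe sets of the series this held for 12.7%. Of the measured genes, 15 of 20 for B cells and 11 of 26 for T cells varied. So did 18 of 22 other leukocyte and 6 of 17 other lymph node genes. The 10 lymph node probe sets came from 4 genes. These lists too were chosen with earlier results of these data known. Btla, an inhibitory receptor of lymphocytes, stood at 7.91 and 7.68 against 5.68 to 6.16. Ikzf1, the lymphocyte factor Ikaros, stood at 8.06 and 8.001 against 5.56 to 6.26, and Ccl5, a chemokine of activated T cells, at 7.89 and 7.98 against 5.84 to 6.08. Marco, a scavenger receptor found on macrophages of lymph node and spleen, stood at 8.39 and 8.27 against 6.07 to 6.28, and Cd209b, a lectin of such macrophages, at 7.62 and 7.57 against 5.73 to 6.04. None of the probe sets of these 4 lists passed between genotypes. Ly6d, listed for B cells but also made by epidermis, kept that order with further high arrays, at 7.20 in knockout 1 and 7.47 in knockout 4 beside 7.71 and 8.08 in the 2 arrays. The 3 B cell probe sets that did not keep it are all of Ebf1, a B cell factor also made by adipocytes, named after its values were seen. The first of them was highest in knockout 1 (8.44), with 8.06 in knockout 5 and 8.34 in wild type 3.

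Markers of other cell types moved with these arrays in part. Of the macrophage list 11 of 12 genes varied, and in 10 of 14 probe sets the 2 arrays were above the other 8. Its mean level ran from 7.83 to 8.46 in knockouts and from 7.67 to 8.69 in wild types. Of the adipocyte list this held for 7 of 16 probe sets, with mean levels of 9.03 to 9.83 and 8.75 to 9.95, and Adipoq, the adipocyte hormone, at 10.81 in knockout 5 and 11.49 in wild type 3 was nearly matched by 10.74 in knockout 4. S100a8 and S100a9, the 2 neutrophil genes of 8 that varied, were highest in wild type 3 (7.54 and 7.11) and next in knockout 5 (6.79 and 6.64). The part of these cells in the lymphocyte pattern was not tested. Of the endothelial list (8 varying probe sets) and the muscle list (14), none had both arrays on top. Of 6 red cell genes 3 were measured, and none of their 5 probe sets varied (highest SD 0.000751). Red cell RNA could therefore not be compared between arrays. Muscle genes averaged between 11.52 and 11.74 in every array, knockout 5 and wild type 3 included. Epidermis and hair genes were high in wild type 3 and 3 arrays besides, and not in knockout 5: their median deviation was 1.32 in knockout 1, 1.68 in knockout 4, 0.80 in wild type 1 and 0.92 in wild type 3, and −0.05 in knockout 5. The labels name the tissue as gastrocnemius, and whether lymph node tissue came with the muscle in these 2 arrays was not tested.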

How the data were processed

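The authors deposited 1 value per probe set and array, taken as log2 from the range and as normalized between arrays, because array medians differ little; software, normalization and log base were not given in the sources used here. Per the labels' protocols, Trizol and a column gave the RNA, of which 100 ng was labelled with a 3' IVT kit. Of 45101 rows, 64 array controls were left out. Genes were named from the platform annotation (34945 probe sets with 1 gene, 932 with several, 9160 unnamed).

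The test of genotype was limma 3.58.1 under R 4.3.3 (two-sided, eBayes after lmFit, Benjamini-Hochberg over 45037 probe sets). "Varying" means an SD over the 10 arrays above 0.01. All listed genes are named by their most variable single-gene probe set, and of other lists at most 2 genes with the highest SD. Deviations are from the median over the 10 arrays. The members and lists were chosen with earlier results of these data known. P-values set the difference between genotypes against the spread between these samples, moderated over all probe sets. The fit was tested on simulated data. The number of arrays limits precision. Alternatives covered normalization, filters, moderation, array weights, a replicate block and left-out arrays. Figures used Python 3.11.15 and matplotlib 3.10.9.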

Additional observations from a re-analysis of the deposited data

Results flagged for a closer look

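In each genotype of 5 arrays, the gap between the highest or lowest array and its nearest neighbour was divided by the whole range of that genotype, and set against Dixon's 95% critical value of 0.71. Of 46 groups tested (23 genes in each genotype), 41 exceeded it, 21 with knockout 5 and 20 with wild type 3 as the high array, where chance gives about 1 in 20 groups. The groups share these 2 arrays and are not independent. The genes were chosen with earlier results of these data known, and each probe set for its high SD over the arrays. The count thus describes the pattern, and the chance rate is no test of it. Over all 6209 varying probe sets the critical value was exceeded with knockout 5 as the high array in 4.86% and with wild type 3 in 3.8%. With each of the other 8 as the high array it was exceeded in 0.129% to 1.85%. What set these arrays apart was not tested.

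Among B cell genes, with knockout 5 high, the ratio was 0.929 for Cd79b, 0.892 for Ms4a1, 0.917 for Cd22, 0.941 for Pou2af1, 0.942 for Fcmr, 0.883 for Ighm, 0.861 for Cr2 and 0.910 for Fcer2a. With wild type 3 high it was 0.955 for Cd79b, 0.988 for Ms4a1, 0.945 for Cd22, 0.880 for Pou2af1, 0.915 for Fcmr, 0.857 for Ighm, 0.926 for Jchain, 0.896 for Cr2 and 0.766 for Fcer2a. Jchain in knockouts did not exceed the critical value, and its other 4 knockout arrays ran from 5.47 to 6.26.

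Among T cell genes the ratio with knockout 5 high was 0.839 for Cd3d, 0.961 for Cd3g, 0.907 for Cd2, 0.813 for Cd5, 0.728 for Cd8b1, 0.937 for Il7r and 0.905 for Ms4a4b. With wild type 3 high it was 0.885 for Cd3d, 0.909 for Cd3g, 0.766 for Cd5, 0.888 for Il7r and 0.877 for Ms4a4b. Cd2 and Cd8b1 exceeded the value in knockouts and not in wild types. Whether the genotypes differ in that was not tested.

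Among shared and lymph node genes the ratio with knockout 5 high was 0.934 for Cd37, 0.915 for Ltb, 0.920 for Ccr7, 0.870 for Ptprc, 0.865 for Coro1a and 0.915 for Glycam1. With wild type 3 high it was 0.886 for Cd37, 0.984 for Ltb, 0.857 for Ccr7, 0.713 for Ptprc, 0.913 for Coro1a and 0.905 for Glycam1. Cxcl13 exceeded it in neither genotype.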

How the results depend on the processing

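None of the 60 probe sets passed in any alternative, and the lowest adjusted p of a named gene over its 411 alternatives was 0.7667 with limma. The number of these probe sets with an SD above 0.01 ran from 31 to 33 over the alternatives. Over all probe sets 86 passed. After quantile normalization 43 did, with just probe sets of SD above 0.01 tested 143, without both arrays 16, and with 1 array left out 31 to 57. With the replicate number as a replicate block 5 passed. Samples with the same number did not deviate together in all pairs (correlations 0.25, 0.32, −0.40, 0.02 and −0.14 for numbers 1 to 5), so the numbers are not taken as pairing.

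The direction of a member's difference depended on which arrays were kept. Of the 411 alternatives 100 turned a sign, all but 10 of them with 1 array left out. With array weights the sign turned for Cd3d (−0.01512), Cd8b1 (0.0025) and Cxcl13 (−0.07867). Without both arrays it turned for Cd3g (0.01003), Cd2 (0.006005), Cd8b1 (0.01234), Cd37 (0.005797) and Ltb (−0.01569). When a gene's single-gene probe sets were averaged, which gives no test, it turned for Il7r (−0.01821) and Cd37 (0.02153). With 1 array left out, the knockout minus wild type differences of B cell genes ran as follows: Cd79b −0.5462 to 0.5849, Ms4a1 −0.4701 to 0.5108, Cd22 −0.228 to 0.4555, Pou2af1 −0.4312 to 0.4985, Fcmr −0.5596 to 0.4629, Ighm −0.2966 to 0.6554, Jchain −0.2753 to 0.5501, Cr2 −0.1419 to 0.2432 and Fcer2a −0.1651 to 0.253. Those of T cell genes ran as Cd3d −0.2797 to 0.2967, Cd3g −0.3182 to 0.2487, Cd2 −0.1538 to 0.1574, Cd5 −0.06064 to 0.07859, Cd8b1 −0.1104 to 0.111, Il7r −0.2851 to 0.3247 and Ms4a4b −0.6506 to 0.5298. Those of the other genes ran as Cd37 −0.166 to 0.1501, Ltb −0.527 to 0.5277, Ccr7 −0.3385 to 0.2422, Ptprc −0.4661 to 0.3891, Coro1a −0.4046 to 0.299, Glycam1 −0.3497 to 0.5914 and Cxcl13 −0.1766 to 0.1837. In all of these ranges but that of Cxcl13 the ends were the fits without knockout 5 and without wild type 3. For Cxcl13 the low end was that without wild type 1.

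Signal limits the reading: 28 of 60 probe sets hardly varied, and 23 of the 32 others had a median in the other 8 arrays below every array's overall median. Background per probe set and scanner files were not used here. With 5 arrays a genotype, their number limits the precision.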
